A study of Mus musculus with 15 samples.

Results

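The 32 genes described here make cholesterol, sense its level, bring it out of lysosomes and export it. They were chosen by name as members of these steps, with earlier results of these data known. The rule also asked for 10 normalised counts in at least 3 libraries. All 32 were found among the 18075 genes of the untreated tables. They were also among the 17775 genes of the table that pairs temozolomide-treated and untreated 36N cells. The same held for the 19035 genes of the table of drug-treated cells. In each comparison below all 32 reached 10 normalised counts in at least 3 of the libraries compared. By role, 8 belong to the mevalonate pathway and its prenyl branch, 11 to the steps from squalene to cholesterol, 6 to sterol sensing and carriage, 2 to egress from the lysosome, and 5 to the liver X receptors and their export targets. Further genes of these steps were not analysed here.

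RNA was sequenced after poly(A) selection from total bone marrow of C57BL/6 mice with leukemia. Every leukemia carried the MLL-AF9 fusion oncogene, delivered with a GFP reporter by retrovirus into lineage-depleted donor cells, and the marrow came from the quaternary recipients of a serial transplantation (3 Gy before each serial passage, 7 and 3 Gy before the first). There were 15 libraries in 5 groups of 3: GFI1 KD /KD, which expresses 10 to 20% of human GFI1 (KD, libraries 7 to 9), GFI1 36N /36N with the 36N variant (36N, libraries 4 to 6), and GFI1 KI /KI with human GFI1 at the mouse Gfi1 locus (36S, libraries 1 to 3), all untreated, and 36N and 36S cells treated with temozolomide (TMZ, a DNA-methylating drug) at 50 µg/ml, added 20 h before the RNA was taken. GFI1 is a zinc finger repressor of transcription in blood cells, all groups carry human GFI1 or a form of it, and its level was not analysed here. Titles of the 36N and KD libraries all carry a final 1, while those of 36S carry 1 to 3, with no meaning given. In the table of treated cells the column names give each library a further number of its own, with no meaning stated. The labels do not say whether replicates came from separate leukemias, so the p-values rest on the spread among these libraries, which may be technical. In bulk marrow, fewer cells of a type and less RNA per cell cannot be told apart. The labels do not say whether untreated cells were also held for 20 h, so the drug and the holding time cannot be told apart.

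Cholesterol is built from acetyl-CoA through mevalonate and isoprenoid pyrophosphates to squalene, which is closed to lanosterol and trimmed to cholesterol. When sterols in the endoplasmic reticulum are low, SCAP carries the membrane-bound SREBP factors to the Golgi, where they are cut and released to switch on the genes of synthesis, and INSIG proteins hold SCAP back when sterols are high. Oxysterols, which form when cholesterol is ample, activate the liver X receptors (LXR), whose targets ABCA1 and ABCG1 move cholesterol out of the cell and whose target MYLIP lowers its uptake. Macrophages are known for high activity of this export arm.

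Promoters of 26 of the 32 genes were found in the RefSeq table (GRCm38.p6), 250 bases before and 50 after each RefSeq start. Fdps, Fdft1, Sqle, Stard4, Npc1 and Abcg1 had no entry. Both strands were searched for the sterol regulatory element TCACNCCAC, which SREBP binds, for its core CACNCCAC, which lies inside the full element and is counted again with it, for the NF-Y box CCAAT and for the Sp1 box GGGCGG, which bind partners of SREBP. The full element stood in 1 of the 26 promoters, that of Hmgcs1, and in 1.44% of all 27025 promoters. Its core stood in 3 (Acat2, Hmgcs1 and Insig1), against 7.12% of all. The NF-Y box stood in 21 of the 26 and in 15 of the 16 promoters of synthesis genes found, against 41.1% of all, and the Sp1 box in 22 of the 26, against 38.2%. The E-box CACGTG stood in 6 of the 26, against 8.09%. The LXR direct repeat stood in 0 of the 26, against 0.0148%. Only exact copies of this repeat were searched, and 4 of all 27025 promoters held one. The 0 of 26 therefore says nothing about inexact LXR sites.

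The 250 bases before the start are printed for 4 genes: Hmgcs1, as the promoter with the full element, Idi1 and Lss, as synthesis genes whose RNA was lower in KD, and Abca1, as an export gene. Capitals mark the sterol regulatory element and the NF-Y box, read on either strand (ATTGG on the printed strand is the NF-Y box on the other). Hmgcs1 lies at chr13:119690101-119690350 (plus strand), Idi1 at chr13:8885356-8885605 (plus), Lss at chr10:76531355-76531604 (plus) and Abca1 at chr4:53159896-53160145 (minus).
Hmgcs1: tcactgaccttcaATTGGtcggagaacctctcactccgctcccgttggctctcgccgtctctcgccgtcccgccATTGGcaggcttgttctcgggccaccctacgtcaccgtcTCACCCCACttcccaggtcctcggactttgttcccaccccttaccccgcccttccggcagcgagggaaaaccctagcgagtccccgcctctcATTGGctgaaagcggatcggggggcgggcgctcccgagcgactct
Idi1: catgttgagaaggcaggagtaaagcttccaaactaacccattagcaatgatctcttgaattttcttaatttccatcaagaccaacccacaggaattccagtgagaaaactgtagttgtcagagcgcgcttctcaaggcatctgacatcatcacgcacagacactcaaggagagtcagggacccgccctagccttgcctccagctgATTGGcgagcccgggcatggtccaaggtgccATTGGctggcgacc
Lss: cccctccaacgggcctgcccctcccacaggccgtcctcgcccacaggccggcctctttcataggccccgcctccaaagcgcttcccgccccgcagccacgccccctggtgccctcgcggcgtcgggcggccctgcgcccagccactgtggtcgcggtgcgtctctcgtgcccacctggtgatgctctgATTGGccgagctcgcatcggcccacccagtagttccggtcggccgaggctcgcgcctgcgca
Abca1: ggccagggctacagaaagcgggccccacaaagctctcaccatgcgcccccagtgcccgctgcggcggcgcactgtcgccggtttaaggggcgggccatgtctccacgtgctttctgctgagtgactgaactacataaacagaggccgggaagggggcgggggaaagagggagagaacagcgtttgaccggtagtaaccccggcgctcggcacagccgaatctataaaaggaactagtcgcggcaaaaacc
The Hmgcs1 window held 3 NF-Y boxes, that of Idi1 2, that of Lss 1 and that of Abca1 0. The sterol element of Hmgcs1 began 137 bases before the RefSeq start. By the GENCODE M21 annotation Idi1 starts at 8885501 and Lss at 76531588, inside their printed windows. Both NF-Y boxes of Idi1 therefore lie within the gene by that annotation. These matches are descriptions of letters, and no binding was measured.

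The deposited values were normalised counts per gene, which are not whole reads, so the read depth cannot be given, nor an interval for counting error. Column totals, in units of 1e6, ranged over 11.27 to 13.03 in untreated libraries, 15.69 to 18.29 in the table that pairs treated and untreated 36N cells, and 22.25 to 24.26 in the table of treated cells. Levels are compared only within a table, except in the alternative with own-treatment tables for TMZ in 36N, described below. Tests used limma-trend on log2(normalised count + 1) over all genes, with Benjamini-Hochberg adjustment and a threshold of 0.05, and a gene is said to have risen or fallen only past it. Fold changes are on that log2 scale and understate changes of low genes. Both untreated comparisons with 36S use the same 3 control libraries, so their values stand side by side and are not independent. The leukemic and myeloid progenitor markers Mpo, Elane, Prtn3, Ctsg, Hoxa9, Meis1, Hoxa10, Cd34 and Flt3 were above 0 in every library. Of the 32 genes, 12 share exon bases with another gene in GENCODE M21 (mm10), 11 by at least 100 bases, among them Fdft1 with Ctsb (774 bases, opposite strand) and Tm7sf2 with Vps51 (532, same strand). Acat2 and Idi1 also have close paralogs in mouse. By the same annotation Idi1 spans chr13:8885501-8892451, Lss chr10:76531588-76557138 and Abcg1 chr17:31057675-31117988, all on the plus strand. Neither strand nor the handling of shared reads is stated, so values of these genes are less certain.

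In untreated KD marrow 9 of the 32 genes fell and 2 rose against 36S (28.1% and 6.25% of the 32), where 4.86% of all 13109 genes tested were lower and 6.61% higher (11.5% in either direction). The 9 were 3 genes of the mevalonate pathway (Acat2, Hmgcs1, Idi1), 4 of the steps after squalene (Sqle, Lss, Hsd17b7, Dhcr7), the factor Srebf2 and the carrier Stard4. The 2 that rose were Abcg1 and Npc2. In untreated 36N marrow 2 of the 32 fell against 36S, Idi1 and Stard4, and 0 rose (6.25% and 0%), where 2.01% of all 13137 genes tested were lower and 2.55% higher (4.56% in either direction). At an unadjusted p under 0.05 there were 17 of the 32 in KD and 10 in 36N, against 26.5% and 20.4% of all genes. The median log2 fold change over the 32 was -0.26 in KD and -0.25 in 36N, with -0.01 over all genes in both. Scaling libraries to equal totals moved the median of all genes in KD against 36S to -0.13 and that of the 32 to -0.38. It turned the split over all genes to 605 higher and 936 lower, against 866 and 637 as deposited, with 2 of the 32 higher and 10 lower, Fdps being the added one (-0.75, adjusted p = 0.0403).

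**Figure D1:**
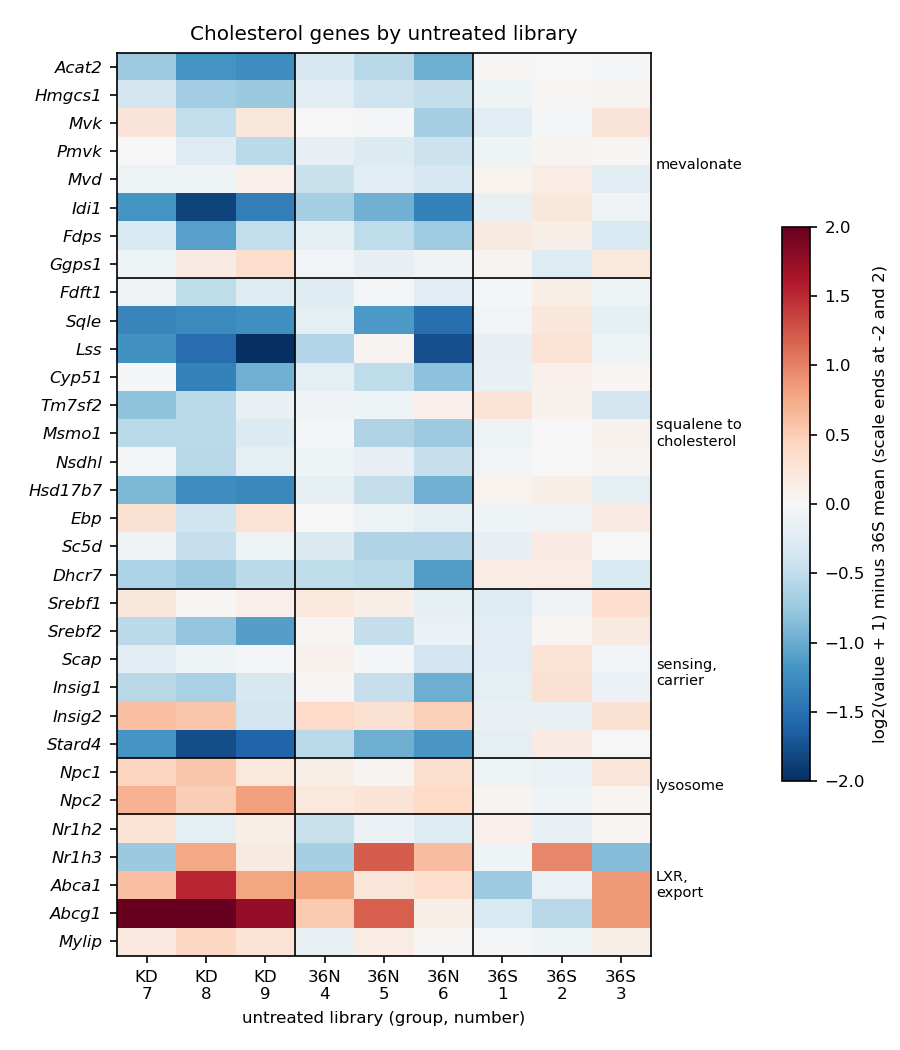
Heat map of the 32 genes (rows, grouped by role) in the 9 untreated libraries (columns: KD, 36N, 36S). Colour is log2(normalised count + 1) minus the mean of the 3 36S libraries, from blue (lower) to red (higher); the colour scale ends at -2 and 2, so more extreme values are drawn at its ends. Idi1, Lss, Sqle and Stard4 are the darkest blue rows in KD and Abcg1 the darkest red.

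In the mevalonate pathway, Idi1, which isomerises isopentenyl pyrophosphate, fell in both groups. Its normalised counts were 176, 111 and 155 in KD, 255, 207 and 159 in 36N and 364, 473 and 387 in 36S. All KD and all 36N libraries lay below all 36S libraries, and KD and 36N overlapped. The log2 fold change was -1.48 in KD (SE 0.21, adjusted p = 0.00226) and -0.99 in 36N (SE 0.20, adjusted p = 0.0253). Acat2, which joins acetyl-CoA units at the entry of the pathway, had 82.1, 58.9 and 57 in KD, 109.6, 92.8 and 69.1 in 36N and 139, 137 and 134 in 36S. It fell in KD (log2 fold change -1.06, SE 0.22, adjusted p = 0.016), and its 36N libraries also lay below those of 36S without passing the test (log2 fold change -0.61, SE 0.22, adjusted p = 0.156). Hmgcs1, which makes HMG-CoA, had 312, 247 and 239 in KD, 344, 301 and 288 in 36N and 379, 409 and 417 in 36S. It fell in KD (log2 fold change -0.60, SE 0.16, adjusted p = 0.0398), and in 36N it had a log2 fold change of -0.37 (adjusted p = 0.163), again with no overlap between the groups.

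The other 5 genes of this branch passed in neither comparison. Fdps, the farnesyl pyrophosphate synthase, had 562, 329 and 494 in KD, 609, 491 and 424 in 36N and 788, 760.1 and 568 in 36S. The KD libraries all lay below those of 36S (log2 fold change -0.63, SE 0.22, adjusted p = 0.0964), and 1 library of 36N overlapped with 36S (log2 fold change -0.47, SE 0.18, adjusted p = 0.172). Mvk and Pmvk, the kinases that phosphorylate mevalonate, Mvd, which removes a carboxyl group, and Ggps1, which makes geranylgeranyl pyrophosphate for protein prenylation, had log2 fold changes between -0.26 (Pmvk) and 0.14 (Ggps1) in KD. In 36N they lay between -0.33 (Mvd) and -0.09 (Ggps1), with all 36N libraries below 36S for Pmvk and Mvd.

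Of the 11 genes after squalene, Lss and Sqle had the lowest log2 fold changes in KD. Sqle, the squalene epoxidase, had 66.6, 68.3 and 70.8 in KD, 148, 74.7 and 58.1 in 36N and 162, 196 and 148 in 36S. The KD libraries lay close together below 36S (log2 fold change -1.28, SE 0.20, adjusted p = 0.00446), while 36N was spread and 1 of its libraries lay among those of 36S (log2 fold change -0.95, SE 0.32, adjusted p = 0.144). Lss, the lanosterol synthase, had 64.9, 52.3 and 37.1 in KD, 101, 158 and 44.4 in 36N and 135, 183 and 142 in 36S. KD was below 36S in every library (log2 fold change -1.58, SE 0.27, adjusted p = 0.00553). In 36N library 6 was near KD and library 5 among 36S (log2 fold change -0.76, SE 0.40, adjusted p = 0.318).

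Hsd17b7, a sterol ketone reductase, had 63.1, 49.4 and 47.6 in KD, 104, 84.9 and 60.2 in 36N and 125, 128 and 103 in 36S. It fell in KD with no overlap (log2 fold change -1.14, SE 0.23, adjusted p = 0.0135), and its log2 fold change in 36N was -0.54 (adjusted p = 0.256). Dhcr7, a reductase of the last step to cholesterol, had 415, 387 and 444 in KD, 450.5, 439.6 and 295 in 36N and 712, 711 and 521 in 36S. All KD and all 36N libraries were below all 36S libraries. Dhcr7 passed in KD (log2 fold change -0.63, SE 0.16, adjusted p = 0.0356) and missed the threshold in 36N (log2 fold change -0.72, SE 0.20, adjusted p = 0.0771).

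The other 7 genes after squalene passed in neither comparison. Cyp51, the lanosterol demethylase, had 303, 119.6 and 157 in KD, with library 7 among the 36S values, 272, 216 and 173 in 36N, all below 36S, and 278, 330.0 and 315 in 36S. Its log2 fold changes were -0.78 (adjusted p = 0.131) in KD and -0.50 (adjusted p = 0.174) in 36N. Without KD library 7 Cyp51 passed in KD (log2 fold change -1.16, adjusted p = 0.0134). Sc5d, a sterol desaturase, had 437, 333 and 429.6 in KD, 374, 302 and 301 in 36N and 411, 514 and 457 in 36S, with all 36N libraries below 36S (log2 fold change -0.50, SE 0.15, adjusted p = 0.0999) and KD overlapping (log2 fold change -0.21, SE 0.16, adjusted p = 0.469). Fdft1 (squalene synthase), Tm7sf2 (a sterol reductase), Msmo1 (methylsterol monooxygenase), Nsdhl (a sterol dehydrogenase) and Ebp (a sterol isomerase) had log2 fold changes between -0.50 (Tm7sf2) and 0.06 (Ebp) in KD, with all KD libraries below 36S for Msmo1. In 36N they lay between -0.45 (Msmo1) and -0.02 (Tm7sf2), with all 36N libraries below 36S for Nsdhl.

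Over the 19 synthesis genes, 7 fell in KD and 1 in 36N, with medians of -0.50 and -0.45. In KD 9 of the 19 had all libraries below all 36S libraries, where 15.8% of all genes did, and in 36N 9 of the 19 did, where 13.8% of all genes did. All 19 fold changes were below 0 in 36N, although 18 of them did not pass. Set against the 36S mean, the mean log2 difference over the 19 was -0.41, -0.77 and -0.55 in KD libraries 7 to 9, -0.23, -0.39 and -0.70 in 36N libraries 4 to 6, and -0.03, 0.08 and -0.05 in the 36S libraries. A list of 20 genes of mitosis, of which 0 passed in either comparison, stood at 0.01, -0.51 and -0.34 in KD, -0.31, -0.47 and -0.39 in 36N and 0.25, -0.17 and -0.08 in 36S on the same scale. All 20 fold changes of this mitosis list were likewise below 0 in 36N, and all 20 in KD, with medians of -0.40 and -0.28. The part of this list in the lower synthesis values was not tested.

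**Figure D2:**
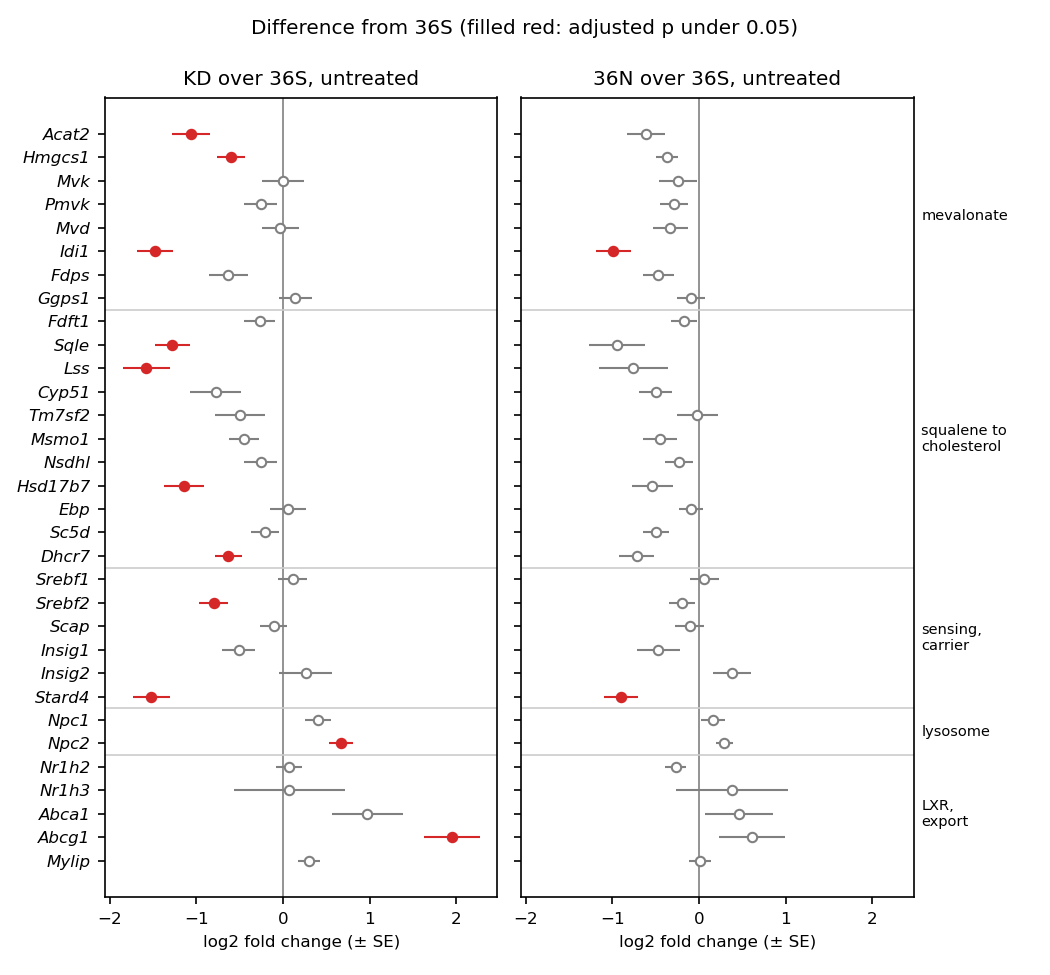
Log2 fold change of each of the 32 genes (rows, grouped by role) in untreated KD over 36S (left) and 36N over 36S (right), with SE as bars, n = 3 libraries per group. Filled red points have an adjusted p under 0.05 (11 in KD, 2 in 36N) and open grey points do not; in 36N every point of the first 19 rows lies left of 0.

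Among the sensing genes, Srebf2, the SREBP form that drives cholesterol synthesis, had 1077, 906 and 720.1 in KD, 1565, 1117 and 1404 in 36N and 1336, 1592 and 1744 in 36S. It fell in KD, with no overlap with 36S (log2 fold change -0.80, SE 0.17, adjusted p = 0.0177), and 36N overlapped with 36S (log2 fold change -0.20, SE 0.15, adjusted p = 0.487). Srebf1, whose products act more on fatty acid synthesis, overlapped in both (0.11 in KD and 0.06 in 36N). Stard4, a cytosolic sterol carrier, had 120.2, 78.8 and 89.3 in KD, 187, 138 and 121 in 36N and 241, 306 and 275 in 36S. All 6 libraries of the altered groups lay below all of 36S. The log2 fold change was -1.52 in KD (SE 0.21, adjusted p = 0.00222) and -0.90 in 36N (SE 0.20, adjusted p = 0.0386).

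Insig1, Insig2 and Scap passed in neither comparison. Insig1, itself an SREBP target, had 210.2, 197 and 247 in KD, 313, 224 and 157 in 36N and 271, 382 and 286 in 36S, below 36S in all KD libraries without passing (log2 fold change -0.51, SE 0.19, adjusted p = 0.114). Insig2 had 108, 104 and 54.8 in KD, 92.7, 87.1 and 98.4 in 36N and 64, 63.4 and 87.1 in 36S. Its 36N libraries lay above all of 36S, by a narrow margin to 36S library 3 (log2 fold change 0.38, SE 0.22, adjusted p = 0.361), and KD overlapped (log2 fold change 0.26, SE 0.31, adjusted p = 0.64). Scap, the escort of SREBP, had log2 fold changes of -0.11 in KD and -0.11 in 36N with overlapping groups.

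Of the 7 egress and export genes 2 passed in KD, both higher, where 6.61% of all genes were higher. All 7 log2 fold changes were above 0, where the median of all genes was -0.01. Those of Nr1h2 (0.07, SE 0.15) and Nr1h3 (0.07, SE 0.64) were smaller than their SEs, so their direction is not resolved. Npc2, which hands cholesterol to NPC1 inside lysosomes, had 4537, 3974 and 4987 in KD, 3272, 3365 and 3726 in 36N and 2931, 2642 and 2881 in 36S. The 3 groups did not overlap. Npc2 rose in KD (log2 fold change 0.67, SE 0.14, adjusted p = 0.0129) and did not pass in 36N (log2 fold change 0.29, SE 0.10, adjusted p = 0.153). Npc1, the membrane protein of lysosomal egress, had 1103, 1211 and 952 in KD, 891, 850.0 and 1028 in 36N and 767, 747 and 968 in 36S, with overlap in both comparisons and log2 fold changes of 0.40 (adjusted p = 0.131) and 0.16 (adjusted p = 0.532).

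Abcg1, the transporter that moves cholesterol to lipoprotein particles, had 819, 870.0 and 688 in KD, 292, 468 and 219.9 in 36N and 165, 138 and 369 in 36S. Every KD library was above every other untreated library, and 36N and 36S overlapped. Abcg1 rose in KD (log2 fold change 1.95, SE 0.32, adjusted p = 0.00482) and not past the threshold in 36N (log2 fold change 0.61, SE 0.38, adjusted p = 0.394). Abca1, which loads lipid onto apolipoproteins, had 79.4, 152 and 91 in KD, 90.1, 61.6 and 66.5 in 36N and 31.1, 47.4 and 94.6 in 36S, and 36S library 3 lay within the KD range (log2 fold change 0.97, SE 0.41, adjusted p = 0.163 in KD). Mylip, the ubiquitin ligase of lipoprotein receptors, had 666, 776 and 704 in KD, 522, 646 and 593 in 36N and 565, 548 and 631 in 36S. All KD libraries were above 36S, and the difference did not pass (log2 fold change 0.30, SE 0.13, adjusted p = 0.19). Of the receptors, Nr1h2 (LXR beta) had log2 fold changes of 0.07 in KD and -0.27 in 36N. Nr1h3 (LXR alpha) was near the filter in untreated marrow, at 5.32, 17.2 and 11 in KD, 5.66, 23.5 and 15.2 in 36N and 8.97, 19.5 and 4.82 in 36S, and its groups overlapped.

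**Figure D3:**
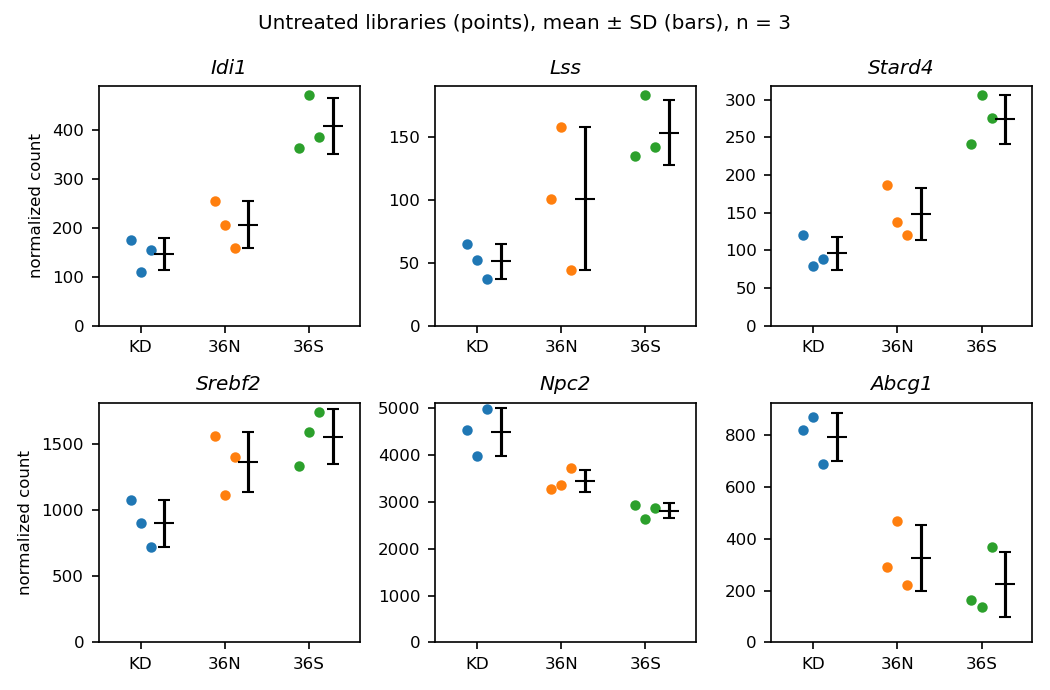
Normalised counts of Idi1, Lss, Stard4, Srebf2, Npc2 and Abcg1 in each untreated library (points) of KD, 36N and 36S, with mean ± SD (bars) over 3 libraries per group; every axis starts at 0. KD is the lowest group for the first 4 genes and the highest for Npc2 and Abcg1, where its libraries lie between 3974 and 4987 and between 688 and 870.0.

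Markers of other cells moved with KD. The summed level of 12 macrophage markers was 11802 to 15678 in KD, 8913 to 10777 in 36N and 7635 to 10388 in 36S. Of 10 tested, 3 rose in KD against 36S: Adgre1 (1.29), Vcam1 (2.01) and Csf1r (0.98), and 1 in 36N, Vcam1 (1.47). The sum of 10 T and NK cell markers was 232 to 818 in KD, 122 to 191 in 36N and 70.9 to 198 in 36S. The sum of 8 B and plasma cell markers was 865 to 1116 in KD, 2496 to 4131 in 36N and 3369 to 6403 in 36S. Mast cell and basophil markers, 6 of which are in the table, summed to 1888 to 2207 in KD, 297 to 1040.0 in 36N and 1295 to 2257 in 36S. Of 5 tested against 36S, Cpa3 rose in KD (2.69), and Kit fell in KD (-1.55) and in 36N (-1.81). Ms4a2 was called lower in KD (-3.2) and would not have passed the filter without the 36S libraries. Neutrophil markers summed to 10901 to 18694 in KD, 10679 to 20134 in 36N and 5790 to 66884 in 36S. These overlapping sums hold calls in both directions. Of 10 tested in KD against 36S, Mmp8 rose (2.94) and Camp (-4.91) and Ltf (-3.59) fell, and in 36N only Mmp8 passed (0.86). The 9 leukemic and progenitor markers summed to 39001 to 49644 in KD, 42116 to 53871 in 36N and 71320 to 150366 in 36S, with Elane (-1.77 in KD and -1.25 in 36N) and Mpo (-1.74 in KD and -1.48 in 36N) lower in both. Of these 9, 1 was higher in KD (Cd34, 0.67) and 3 lower, and in 36N 1 was higher (Flt3, 1.94) and 2 lower. Erythroid markers summed to 22.0 to 253 in KD, 49.7 to 1239 in 36N and 50.1 to 203 in 36S, with 0 of 2 tested past the threshold in either comparison. The 36N value of 1239 was library 6, also the lowest 36N library for the synthesis genes, and the other 36N libraries had 52.1 and 49.7. Without library 6, 0 of the 32 genes and 361 of all genes passed in 36N. Likewise 0 of the 32 passed without 36N library 5, 36S library 2 or 36S library 3, with 276, 188 and 508 of all genes. Of the macrophage list Timd4 was at 0 in 2 of the 36S libraries, and of the T and NK list Prf1 in 1. The part of these markers in the values of Abcg1, Npc2, Srebf2, Stard4 and the synthesis genes was not tested.

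The calls differed in how much they rested on single libraries. Idi1, Sqle, Lss, Stard4 and Abcg1 passed in KD under all 13 alternatives tried, with adjusted p-values up to 0.039. Acat2, Hsd17b7 and Npc2 lost the call without 36S library 2 or without KD library 9 (adjusted p up to 0.0795, 0.081 and 0.0894). Srebf2 lost it in 4 of 13 (without the trend and without 36S library 2, 36S library 3 or KD library 9, up to 0.0835). Hmgcs1 and Dhcr7 each lost it in 6 of 13 (up to 0.159 and 0.169). Both lost it without the trend and without 36S library 1, 36S library 2, KD library 8 or KD library 9, Hmgcs1 also without 36S library 3 and Dhcr7 also without KD library 7. In 36N, Idi1 lost it in 5 of 13 (up to 0.121) and Stard4 in 6 of 13 (up to 0.164). For both these were the fit without the trend and those without 36S library 2, 36S library 3, 36N library 5 or 36N library 6, and for Stard4 also that without 36S library 1. Without 36N library 4, Sqle passed in 36N (log2 fold change -1.33, adjusted p = 0.0289).

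KD and 36N were then compared with each other, from the same 6 libraries as above. Of the 32 genes 1 was higher in KD and 0 lower (3.12% and 0%), where 2.03% of all 13118 genes tested were higher and 1.21% lower (3.24% in either direction). At an unadjusted p under 0.05 there were 5 of the 32, against 19% of all genes. With equal totals the split over all genes was 176 higher and 179 lower, against 266 and 159 as deposited, and the count among the 32 was again 1 higher and 0 lower. The gene was Abcg1, whose KD libraries were all above those of 36N (log2 fold change 1.34, SE 0.25, adjusted p = 0.0167). The call was lost without the trend and without 36N library 4, KD library 7 or KD library 9, with adjusted p-values up to 0.0938. Groups were apart with KD higher for 4 of the 32 (12% of all genes) and with KD lower for 3 (10.7%). Npc2 was higher in every KD library without passing (log2 fold change 0.38, SE 0.14, adjusted p = 0.185), and it passed without KD library 8 (0.46, adjusted p = 0.027). Srebf2 and Stard4 were lower in every KD library without passing, with log2 fold changes of -0.60 (SE 0.18, adjusted p = 0.114) and -0.62 (SE 0.25, adjusted p = 0.218). Mylip and Mvd were the others apart with KD higher, and Tm7sf2 with KD lower. Nr1h2, the third gene past the threshold without KD library 8, then had 0.47 (adjusted p = 0.043). For the 19 synthesis genes the median was -0.10 and 0 had an unadjusted p under 0.05.

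Neighbouring pathways, taken from lists, were read beside these genes, where 6.61% of all genes were higher and 4.86% lower in KD, and 2.55% higher and 2.01% lower in 36N. Of 16 genes of fatty acid synthesis tested, 4 fell in KD and 0 rose: Fads2 (37.8 ± 17.7 in KD and 163 ± 50.4 in 36S, SD, n = 3 each, log2 fold change -2.14, SE 0.37, adjusted p = 0.00617), Fads1 (-0.75), the fatty acid synthase Fasn (-0.66) and the desaturase Scd2 (-0.54). In 36N 0 of the 16 passed, and the list medians were -0.24 in KD and -0.26 in 36N. Of 10 other LXR targets 5 rose and 1 was called lower in KD, and 1 rose and 1 was called lower in 36N. The lipoprotein lipase Lpl averaged 5971 ± 454 in KD, 3442 ± 611 in 36N and 1360.2 ± 355 in 36S (log2 fold change 2.17, adjusted p = 0.000223 in KD and 1.36, adjusted p = 0.00767 in 36N, SD, n = 3 each). The apolipoprotein Apoe averaged 2881 ± 564 in KD and 804 ± 345 in 36S (log2 fold change 1.91, SE 0.27, adjusted p = 0.00242). Apoe and Lpl are also expressed by macrophages, whose summed markers were higher in KD and overlapped between 36N and 36S, as given above. The part of macrophages in the values of Apoe and Lpl was not tested. The gene called lower in both was Abcg8, a sterol transporter, at 1.23 ± 1.1 in KD, 7.66 ± 7.83 in 36N and 49.9 ± 10.2 in 36S. It would not have passed the filter without the 36S libraries and could be called only lower, so its values are a description. Smpdl3a also rose in KD (1.06).

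Of 11 genes of cholesterol esterification and lipoprotein uptake, 4 rose in KD and 3 in 36N, and 0 fell. The scavenger receptor Msr1 averaged 322 ± 150.4 in KD, 160.2 ± 36.1 in 36N and 43.6 ± 10.1 in 36S (SD, n = 3 each), with log2 fold changes of 2.77 in KD and 1.85 in 36N. Lrp1 (0.93 in KD and 1.28 in 36N) and Scarb2 (0.59 and 0.75) also rose in both, and Nceh1, a cholesterol ester hydrolase, in KD (0.58). Of 15 genes of the non-sterol isoprenoid branch and of 13 genes of SREBP processing and sterol transport, 0 passed in KD or in 36N against 36S. Between KD and 36N, Apoe (2.68), Lpl (0.81), Smpdl3a (0.89) and the receptor Olr1 (1.12) were higher in KD and Ufd1 (-0.60) lower.

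Temozolomide in 36N cells went with higher values of nearly all synthesis genes. Of the 32 genes 27 were higher and 1 lower with TMZ (84.4% and 3.12%), where 36.3% of all 14390 genes tested were higher and 33.5% lower (69.7% in either direction). At an unadjusted p under 0.05 there were 29 of the 32, against 72.3% of all genes. Of the 19 synthesis genes 18 rose, and all 19 had every TMZ library above every untreated library, where 38.7% of all genes did. The median log2 fold change was 1.61 over the 32 and 0.06 over all genes, and with equal totals 1.46 and -0.09. With equal totals 27 of the 32 were again higher and 1 lower. Mast cell and basophil markers moved with the drug: 11 of them summed to 103777 to 292219 with TMZ and 379.7 to 1351.5 untreated, with Fcer1a, Mcpt4, Tpsb2 and Tpsab1 listed at 0 in all 3 untreated libraries. Several of the list therefore passed the filter through the TMZ libraries alone, so no count of them is given. B and plasma cell markers summed to 160.2 to 260.0 with TMZ and 3416 to 5617 untreated, and T and NK cell markers to 6367 to 9043 with TMZ and 187 to 292 untreated. Most of the T and NK sum with TMZ was Gzmb (5912 to 8248 with TMZ and 8.27 to 22.7 untreated). Of 7 of that list tested, 2 were higher (Gzmb, 8.81, and Nkg7, 3.71) and 4 lower, with a median of -3.60, and Cd3e was listed at 0 in all TMZ libraries. Gzmb passed the filter through the TMZ libraries. Cd3e and Cd3g (0.338 ± 0.585 with TMZ) passed it through the untreated ones. These calls and the median are therefore a description. Macrophage markers summed to 7188 to 14509 with TMZ and 14039 to 17425 untreated, with 5 of 11 tested higher, such as Marco (6.18), and 4 lower, such as Cd163 (-5.11). Cd163 averaged 10.2 ± 7.89 with TMZ and would not have passed the filter without the untreated libraries, so its values are a description. Erythroid markers summed to 536 to 1015 with TMZ and 70.5 to 1729.9 untreated. Klf1, Epor and Hbb-bs averaged 7.31, 4.99 and 9.84 untreated and would not have passed the filter without the TMZ libraries. No count of the erythroid list is therefore given. Flt3 (-7.03), Hoxa10 (-4.88) and Elane (-3.32) were among 6 of 9 leukemic and progenitor markers that fell, Ctsg rose (2.18), and the sums of the 9 overlapped (47555 to 78364 with TMZ and 55899 to 71461 untreated). The part of this change in cell markers in the values below was not tested. The untreated 36N libraries are those set against 36S above, so the comparisons share them.

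The size of these changes also depends on the table. The untreated 36N libraries are in 2 deposited tables, and the ratio between the tables was 1.46 for the median gene but 1.90 for Hmgcs1, 0.805 for Lss, 0.625 for Nr1h2 and 0.592 for Dhcr7, alike in all 3 libraries (median spread between libraries 0.527%). The TMZ libraries of 36N showed the same kind of ratio between their 2 tables (1.49 for the median gene and 0.489 for Dhcr7). No source used here states the step that made these gene-specific factors. An alternative chosen after seeing the data therefore took each library from the table of its own treatment, centred on the median gene. It gave 27 higher and 0 lower of the 32, and 19 of the 19 synthesis genes rose, with a median of 1.89 against 1.70. By the same route 29.9% of all genes were higher and 33% lower. Over all genes it moved 24.7% of fold changes by over 1.5 times and changed the sign of 631 called genes. Both values are given where they differ by that much.

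**Figure D4:**
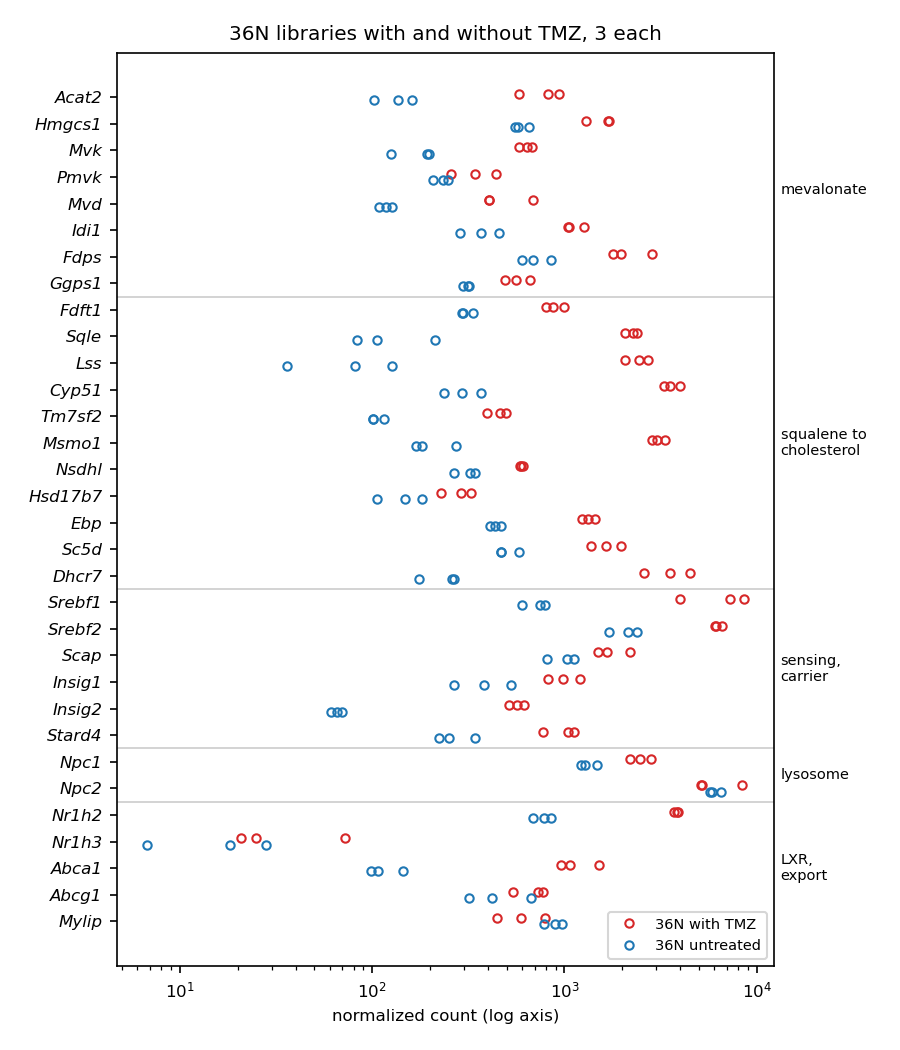
Normalised counts (log axis) of the 32 genes in each 36N library with TMZ (red) and untreated (blue), 3 each, from the table that holds both groups. For 28 genes all red circles lie right of all blue ones; Npc2, Nr1h3, Abcg1 and Mylip overlap.

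In the mevalonate pathway Acat2 had 938, 819 and 577 in 36N with TMZ, against 161, 136 and 102 in untreated 36N (log2 fold change 2.54, SE 0.25, adjusted p = 7.66e-05). Idi1 had 1257, 1039 and 1053 with TMZ, against 455, 369 and 285 untreated (log2 fold change 1.61, SE 0.19, adjusted p = 0.000202). Neither gene's groups overlapped. Hmgcs1 had 1678, 1292 and 1705 with TMZ, against 652, 569.8 and 549.5 untreated (1.39, adjusted p = 0.000122), and 2.06 with own-treatment tables. Its groups were apart as well. Mvk had 676, 579 and 635 with TMZ, against 197, 194 and 126 untreated, and rose by 1.89 on the log2 scale, or by 0.89 (adjusted p = 0.00739) with own-treatment tables. Mvd had 684, 406 and 405 with TMZ, against 109, 127 and 119 untreated (2.03, adjusted p = 0.000219). All TMZ libraries of both genes were above the untreated ones. Fdps had 2842, 1960.5 and 1783 with TMZ, against 855, 689 and 599 untreated (1.60, adjusted p = 0.000317). Ggps1 had 489, 556 and 665 with TMZ, against 318, 295 and 316 untreated (0.87, adjusted p = 0.002), the lowest rise of those called in this branch. Pmvk had 439, 256 and 341 with TMZ, against 248, 232 and 208 untreated, with no overlap. Pmvk did not pass (0.56, adjusted p = 0.0604) and did pass with own-treatment tables (0.62, adjusted p = 0.0445) or without TMZ library 5 (0.75, adjusted p = 0.0154).

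All 11 genes after squalene rose. Sqle had 2264, 2394 and 2061 in 36N with TMZ, against 211, 106 and 83.2 in untreated 36N (log2 fold change 4.17, SE 0.32, adjusted p = 2.25e-05). Cyp51 had 3529.8, 3987 and 3281 with TMZ, against 370.0, 295 and 237 untreated (log2 fold change 3.60, SE 0.18, adjusted p = 3.63e-06). These were among the widest gaps of the set, and own-treatment tables gave 4.0 and 3.40. Lss had 2448, 2707 and 2075 with TMZ, against 81.1, 127 and 36 untreated, a log2 fold change of 5.04 (SE 0.41, adjusted p = 3.14e-05) that was 3.27 (adjusted p = 0.000294) with own-treatment tables. Msmo1 had 3047, 2848 and 3323 with TMZ, against 272, 182 and 168 untreated, and 3.91 became 3.07. Dhcr7 had 3543, 4504 and 2594 with TMZ, against 267, 260.2 and 176 untreated, and its 3.90 (adjusted p = 9.04e-06) became 1.0 (adjusted p = 0.00831). All of these stayed past the threshold. As deposited, the other 6 rose by between 0.95 (Nsdhl) and 2.08 (Tm7sf2) on the log2 scale. Fdft1 had 992, 797 and 872 with TMZ, against 291, 332 and 295 untreated. Tm7sf2 had 496, 395 and 464 with TMZ, against 101, 100.5 and 115 untreated. Nsdhl had 612, 584 and 592 with TMZ, against 341, 324 and 266 untreated. None of these 3 genes had overlapping groups, and neither did the remaining 3. Hsd17b7 had 325, 291 and 228 with TMZ, against 181, 148 and 106 untreated. Ebp had 1327, 1236 and 1438 with TMZ, against 467, 435 and 412 untreated. Sc5d had 1651, 1367 and 1967 with TMZ, against 582, 470.0 and 470.2 untreated.

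**Figure D5:**
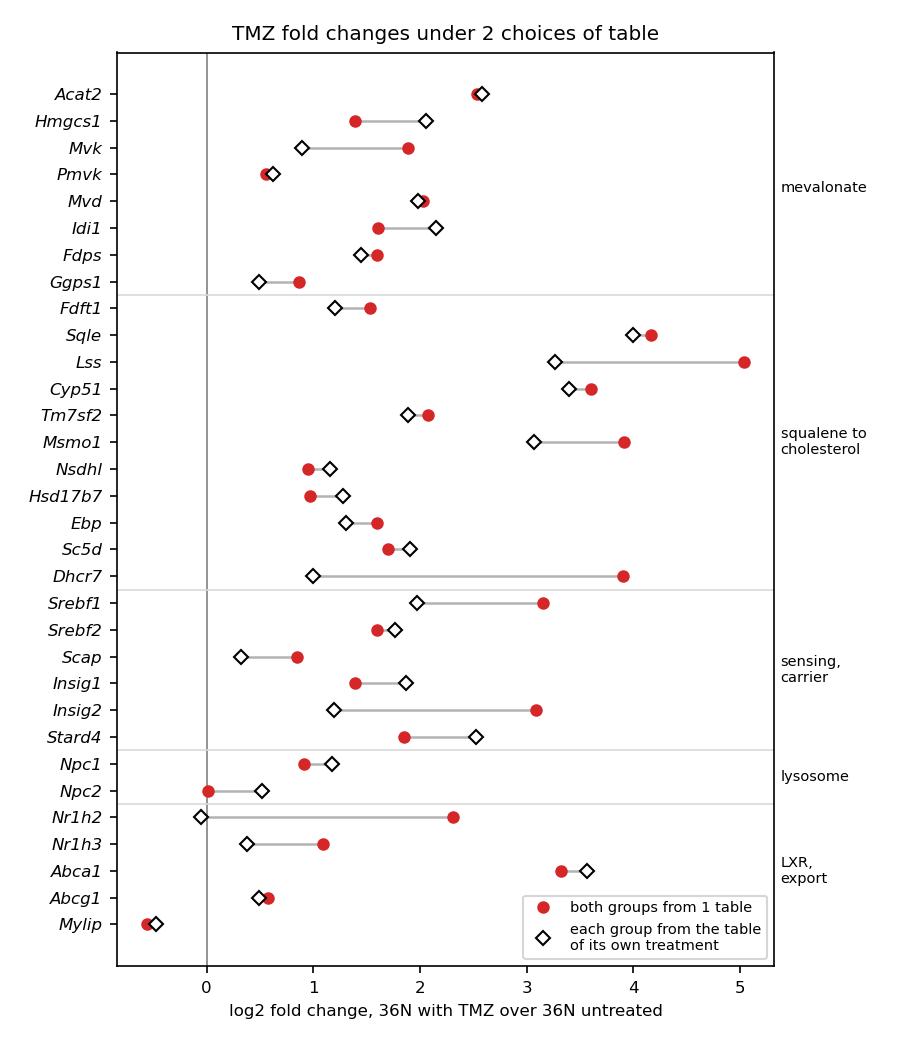
Log2 fold change of each of the 32 genes, 36N with TMZ over untreated 36N, with both groups taken from 1 table (red circles) and with each group taken from the table of its own treatment (open diamonds). Dhcr7 (3.90 and 1.0), Nr1h2 (2.31 and -0.05), Insig2 (3.09 and 1.19) and Lss (5.04 and 3.27) move most, and the 19 synthesis genes in the first 19 rows lie right of 0 both ways.

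All 6 sensing and carrier genes rose as deposited, among them the INSIG genes that oppose synthesis. Srebf2 had 6069, 6111 and 6636 in 36N with TMZ, against 2386, 1703 and 2152 in untreated 36N (log2 fold change 1.60, SE 0.14, adjusted p = 4.7e-05). Insig1 had 1201, 987 and 822 with TMZ, against 529, 379 and 267 untreated (log2 fold change 1.39, SE 0.26, adjusted p = 0.0021). The groups of both genes were apart. Srebf1 had 7262, 8604 and 3995 with TMZ, against 793, 748 and 603 untreated, and its 3.15 was 1.97 with own-treatment tables. Insig2 had 613, 568 and 513 with TMZ, against 65.3, 61.3 and 69.6 untreated, and its 3.09 was 1.19. Both stayed past the threshold. Stard4 had 1047, 1116 and 771 with TMZ, against 343, 252 and 222 untreated (log2 fold change 1.85, SE 0.22, adjusted p = 0.000188), and 2.53 with own-treatment tables. Scap had 1672, 2199 and 1486 with TMZ, against 1117, 1029.7 and 809.9 untreated. It passed as deposited (0.85, adjusted p = 0.00442) and not with own-treatment tables (0.32, adjusted p = 0.179).

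In the egress and export arm, Abca1 had 1519.9, 959 and 1074 in 36N with TMZ, against 145, 99 and 107 in untreated 36N (log2 fold change 3.32, SE 0.23, adjusted p = 1.51e-05), and 3.57 with own-treatment tables. The groups were far apart. Abcg1 had 772, 538 and 725 with TMZ, against 419, 672 and 317 untreated, with overlapping groups (log2 fold change 0.58, SE 0.28, adjusted p = 0.101); without untreated library 5 it passed (0.88, adjusted p = 0.017). Npc1 had 2479, 2193 and 2827 with TMZ, against 1280.0, 1221 and 1485 untreated, with no overlap (log2 fold change 0.91, SE 0.14, adjusted p = 0.000657). Npc2 had 5166, 5136 and 8417 with TMZ, against 5718, 5879 and 6544 untreated, overlapping as deposited (0.01, adjusted p = 0.977) and past the threshold with own-treatment tables (0.52, adjusted p = 0.0474). Nr1h2 had 3856, 3733 and 3899.7 with TMZ, against 686, 855 and 779.5 untreated. Its log2 fold change of 2.31 (adjusted p = 3.89e-06) turned to -0.05 (adjusted p = 0.715), so no direction is given for it. Nr1h3, at 71.7, 20.8 and 25 with TMZ and 6.72, 27.9 and 18.2 untreated, did not pass (1.09, or 0.38 with own-treatment tables). Mylip had 595, 446 and 792 with TMZ, against 782, 967 and 892 untreated, and was the 1 gene called lower (log2 fold change -0.56, SE 0.22, adjusted p = 0.0486), with overlapping groups, and lost the call in 10 of 15 alternatives, which were a pseudocount of 0.5, no filter, no trend, the replicate block, own-treatment tables, and fits without any of the untreated libraries or without TMZ library 4 or 5.

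The counts of the neighbouring lists stand against the 36.3% of all genes higher and 33.5% lower with TMZ in 36N. Among these lists, 11 of 17 fatty acid synthesis genes rose with TMZ in 36N and 1 fell. Fads2 averaged 6766 ± 1277 with TMZ and 91.5 ± 25.4 untreated (6.21, or 5.34 with own-treatment tables). Acss2, which makes acetyl-CoA from acetate, averaged 2291 ± 1302 with TMZ and 44.5 ± 4.82 untreated (5.49, or 5.19). Fads1 (3.80) and Elovl1 (1.48) rose too. Of 9 other LXR targets 5 rose and 1 fell, with Lpcat3 (2.12, or 1.41), Apoe (3.68, or 3.06) and Tgm2 (4.95, or 4.33) among them, and Apoc1 the gene that fell (-3.26). Apoc1 averaged 10.4 ± 8.69 with TMZ and would not have passed the filter without the untreated libraries, so its values are a description. Of 12 genes of esterification and uptake 7 rose and 1 fell, with Soat2, a cholesterol esterifying enzyme (2.70), and Cd36 (3.94) rising and Olr1 falling (-4.21). The 7 include Vldlr (6.44), which averaged 2.01 ± 2.3 untreated and would not have passed the filter without the TMZ libraries. It could be called only higher, so its values are a description. Of 15 isoprenoid genes 9 rose and 2 fell, with Icmt (2.41) and Pggt1b (-1.87, or -0.85) among them. Of 14 genes of SREBP processing 8 rose and 4 fell, with Gramd1a (2.20, or 1.43), Gramd1c (3.64) and Mbtps1 (1.27) higher. Of 20 mitosis genes 13 rose and 1 fell as deposited, and 7 rose and 1 fell with own-treatment tables. As deposited, the share called in either direction was near that of all genes (69.7%) in the fatty acid, LXR, uptake, isoprenoid and mitosis lists.

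Between the genotypes with TMZ, 0 of the 32 genes passed in 36N against 36S in either direction, and 0 of all 14246 genes tested did (0%) with limma-trend. At an unadjusted p under 0.05 there were 191 genes (1.34%), 0 of them among the 32. Idi1 had 2255, 1846 and 1849.7 in 36N with TMZ and 1946, 2071 and 1616 in 36S with TMZ (log2 fold change 0.08, SE 0.17, adjusted p = 1). Stard4 had 2010.2, 2123 and 1450.2 in 36N with TMZ and 2096, 2495 and 1376 in 36S with TMZ (log2 fold change -0.07, SE 0.26, adjusted p = 1). The groups of both genes overlapped. The median over the 19 synthesis genes was -0.11, with 2 of 19 (Tm7sf2 and Nsdhl) lower in every 36N library, where 1.86% of all genes were, and 0 of the 32 higher in every 36N library, where 2.9% of all genes were. Log2 fold changes of the 32 ran from -0.42 (Dhcr7) to 0.88 (Insig2), with SEs from 0.15 (Nr1h2) to 0.61 (Nr1h3). With SEs of this size, 0 calls do not show that the genotypes were alike with TMZ. Mast cell and basophil markers were high in both, summing to 155090.0 to 437572 in 36N with TMZ and 143192 to 400634 in 36S with TMZ.

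Whether the genotype difference changed with TMZ was tested as an interaction, the 36N minus 36S difference with TMZ minus that without, each within its own table. Of the 32 genes 0 passed, where 0.281% of all 14584 genes tested did (0.199% higher and 0.0823% lower), and 2 had an unadjusted p under 0.05, against 6.95% of all genes. Idi1 had a difference of 1.07 (SE 0.27, adjusted p = 0.171) and Stard4 one of 0.83 (SE 0.34, adjusted p = 0.636). The absence of a call with TMZ beside a call without it is therefore not shown to be a difference for either gene. TMZ within 36S was not tested, since no table holds both its untreated and treated libraries, and KD with TMZ was not analysed here.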

How the data were processed

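Poly(A)-selected RNA of 15 libraries was analysed from 4 deposited tables of normalized counts, a normalized signal per gene and library. Per the submitters' processing notes the authors used Salmon and DESeq2 with build mm10, without versions. No source used here records another step. The deposited signal values are not whole reads (by library, 27.6 to 64.4% of low values fell within 0.1 of a whole read at the best scale), so no count model was used. The file headers call the untreated 36S libraries WT; the 36S values of both untreated tables are identical, so KD and 36N could be compared.

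Genes at 10 or more in at least 3 of the libraries compared were tested with limma-trend (limma 3.58.1, R 4.3.3) on log2(value + 1), Benjamini-Hochberg adjusted over all genes, threshold 0.05, 3 libraries per group, with no covariates. The script was tested on simulated data. The interaction had 1 intercept per table. Genes were chosen and lists drawn up with earlier results of these data known. All 32 genes are accounted for; of each other list the text names genes called in a comparison, at most the 4 with the lowest p. A gene that this takes is not reported here. Alternatives tried: a pseudocount of 0.5 or 5, a filter of 50 or none, equal totals, no trend, a robust fit, each library left out, and, for TMZ, a replicate block and own-treatment tables. Same-numbered 36N libraries with and without TMZ had correlations of 0.019, 0.037 and 0.086 between deviations, too low to treat the numbers as pairs. Positions came from GENCODE M21 and promoters from RefSeq (GRCm38.p6).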

Additional observations from a re-analysis of the deposited data

Results flagged for a closer look

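Abcg1 differed between the altered GFI1 groups: its log2 fold change against 36S was 1.95 in KD and 0.61 in 36N. The difference tested directly, KD against 36N, was 1.34 (SE 0.25, adjusted p = 0.0167 with limma-trend). In it 3 of 3 KD libraries were above all 36N libraries, as for 12% of all genes. The call was lost in 4 of 13 alternatives (adjusted p up to 0.0938 with limma-trend). Both fold changes against 36S share the 36S libraries, which cancel in the direct test. The part of the higher macrophage markers in KD was not tested.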

How the results depend on the processing

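Read depth before normalization is unknown, and 3 libraries per group limit every test. In 36N against 36S, without the trend 0 of the 32 genes and 305 of all genes passed (2 and 599 as reported), and with 1 library left out 0 to 3 and 188 to 508. In KD against 36S (11 and 1503) the ranges were 5 to 11, lowest without 36S library 2 or KD library 9, and 591 to 2051. In KD against 36N (1 and 425), 0 and 203 passed without the trend, and 0 to 3 and 116 to 1986 with 1 library left out, the highest without KD library 8. With TMZ, 36N against 36S gave 0 to 1 of all genes, the 1 without 36S TMZ library 3. The interaction (41 of all genes) gave 11 to 39 with 1 library left out and 17 with the replicate block. For TMZ in 36N (28 and 10037) the counts with 1 library left out were 27 to 28 and 8192 to 8901. The replicate block, on numbers that were not shown to pair the libraries, gave 27 and 9985. Own-treatment tables gave 27 and 8704 and reversed Nr1h2 (-0.054). The causes were not tested. Other settings kept counts within 1.5 times.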
